A study of Homo sapiens with 8 samples.

Results

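The genes described here build the mitotic spindle, attach chromosomes to it and separate them, in an established line of human colorectal cancer cells, HCT116, which is epithelial in origin. The cells expressed either a short hairpin RNA against the kinase CDK8 or a control hairpin. A list of 55 gene symbols defined the set, and 54 of them had a probe set of their own among the 18417 genes tested. The remaining member, CENPA, the centromeric histone, was read only by a probe set that the array annotation pairs with SLC35F6 as well, and it is given separately. Total RNA was hybridised to Affymetrix arrays, 1 array per sample, and the 8 arrays formed 4 groups of 2. The groups were shCDK8 cells and shControl cells that had received 10% fetal bovine serum for 30 min, and shCDK8 cells and shControl cells harvested without it. All 8 samples, both hairpins included, had first been kept without serum for 40 h, so no group shows cells in full growth medium. Each arm used a single hairpin, so the knockdown and any other difference between the 2 lines cannot be told apart. The labels do not say that the duplicates came from separate cultures, so a p-value here measures only the spread between the samples at hand, and that spread may be technical.

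Levels are log2 values of probe sets, so a difference of 1 is a doubling. A gene is said to have risen or fallen where limma's test gave a Benjamini-Hochberg adjusted p below 0.05 over all 18417 genes. The test is a linear model in which each gene's own spread is drawn towards a value common to all genes. Changes are given with their standard errors, and levels are given array by array because each group had only 2. Median levels ran between 6.44 and 6.51 over the arrays, and r between duplicates, across genes, was 0.997 to 0.998. The probe set of the targeted gene, which the annotation pairs with CDK8 and ADRA1B, read 7.04 and 7.06 in shCDK8 cells after serum, against 9.22 and 9.19 in shControl cells, and 7.09 and 6.99 in starved shCDK8 cells, against 9.23 and 9.20 in starved shControl cells. That probe set was 4.45-fold lower after serum and 4.53-fold lower in starved cells. Of 10 markers listed for the labelled epithelial origin, EPCAM lay between 11.7 and 11.8 on all arrays and KRT8 between 12.2 and 12.7, while the differentiation markers KRT20 (5.76 to 6.12) and VIL1 (5.38 to 5.77) lay below the array medians. The leukocyte gene PTPRC lay between 3.53 and 3.66 and the fibroblast genes DCN and LUM between 3.20 and 3.74, near the bottom of the scale, but not every marker of other cell types was that low. The fibroblast collagen genes COL1A1, COL1A2 and COL3A1 lay between 7.95 and 8.501, between 6.55 and 6.84 and between 6.18 and 6.44, PDGFRB between 5.68 and 6.09 and VIM between 5.13 and 5.43. The 6 blood and endothelial markers lay between 3.53 (PTPRC) and 6.06 (HBB). On the log2 scale the summed level of the 7 fibroblast markers was 9.21 to 9.22 in shCDK8 cells after serum, against 9.32 to 9.39 in shControl cells, and 9.11 to 9.19 in starved shCDK8 cells, against 9.14 to 9.25 in starved shControl cells. That of the 6 blood and endothelial markers was 7.52 to 7.63 in shCDK8 cells after serum, against 7.53 to 7.54 in shControl cells, and 7.61 to 7.66 in starved shCDK8 cells, against 7.72 to 7.75 in starved shControl cells.

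Mitosis begins when CDK1 bound to a B-type cyclin is dephosphorylated by a CDC25 phosphatase. Aurora and other kinases then order centrosome separation, chromosome condensation and the attachment of kinetochores to spindle microtubules, while kinesin motors slide and cross-link those microtubules. The spindle checkpoint holds back the anaphase-promoting complex until every chromosome is attached, after which securin and cyclin B are destroyed, separase cuts cohesin and the cell divides. Transcripts of these proteins accumulate together late in the cell cycle. Their promoters commonly carry a cell cycle homology region (CHR), bound in quiescent cells by the repressive DREAM complex and in cycling cells by B-MYB and FOXM1 complexes, with CCAAT boxes bound by NF-Y upstream of it.

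The promoters of the 4 genes with the largest falls in starved shCDK8 cells among those holding both elements are shown first, because they place these elements beside the genes that changed most, followed by that of CDC25B, the gene with the smallest difference in starved cells. Each window of 300 bases runs from 250 before to 50 after the annotated start, 5′ to 3′ on the gene's own strand, from the RefSeq promoter table of GRCh38.p14. Capitals mark a CHR core, written as TTTGAA or TTCGAA, or a CCAAT box, written as CCAAT, on either strand, so that TTCAAA and ATTGG are the same elements read on the other strand. Adjoining elements can run into each other in 1 stretch of capitals. DEPDC1 lies at chr1:68497033-68497332 on the minus strand, HMMR at chr5:163460382-163460681 on the plus strand, CDC25C at chr5:138331828-138332127 on the minus strand, CDC20 at chr1:43358731-43359030 on the plus strand and CDC25B at chr20:3796060-3796359 on the plus strand. The table holds 4 windows each for CDC25C and CDC25B, of which 1 is shown. It is the window with the most CHR and CCAAT matches, for CDC25C among those holding both. Its layout may therefore differ from that of the windows not shown.
DEPDC1: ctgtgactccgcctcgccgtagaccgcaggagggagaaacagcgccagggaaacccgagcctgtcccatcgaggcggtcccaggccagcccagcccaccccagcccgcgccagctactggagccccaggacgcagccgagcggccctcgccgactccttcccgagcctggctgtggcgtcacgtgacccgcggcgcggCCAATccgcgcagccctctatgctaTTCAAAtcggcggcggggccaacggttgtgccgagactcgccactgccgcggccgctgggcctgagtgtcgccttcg
HMMR: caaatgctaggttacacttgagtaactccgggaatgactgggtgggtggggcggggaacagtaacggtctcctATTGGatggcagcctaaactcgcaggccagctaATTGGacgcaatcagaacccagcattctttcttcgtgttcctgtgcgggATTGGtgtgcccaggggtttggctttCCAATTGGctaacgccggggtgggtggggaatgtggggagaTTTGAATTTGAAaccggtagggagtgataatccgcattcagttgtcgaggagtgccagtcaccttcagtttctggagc
CDC25C: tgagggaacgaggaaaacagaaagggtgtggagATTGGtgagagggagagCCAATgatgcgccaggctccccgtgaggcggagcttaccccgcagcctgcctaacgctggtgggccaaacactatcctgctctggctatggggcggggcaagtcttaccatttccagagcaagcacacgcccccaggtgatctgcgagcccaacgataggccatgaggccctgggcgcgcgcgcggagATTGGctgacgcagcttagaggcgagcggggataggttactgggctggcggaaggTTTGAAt
CDC20: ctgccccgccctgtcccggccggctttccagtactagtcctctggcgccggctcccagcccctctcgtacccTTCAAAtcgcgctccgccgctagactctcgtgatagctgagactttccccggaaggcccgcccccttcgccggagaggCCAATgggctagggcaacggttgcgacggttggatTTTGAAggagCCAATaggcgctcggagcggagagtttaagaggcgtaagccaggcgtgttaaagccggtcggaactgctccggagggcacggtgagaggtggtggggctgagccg
CDC25B: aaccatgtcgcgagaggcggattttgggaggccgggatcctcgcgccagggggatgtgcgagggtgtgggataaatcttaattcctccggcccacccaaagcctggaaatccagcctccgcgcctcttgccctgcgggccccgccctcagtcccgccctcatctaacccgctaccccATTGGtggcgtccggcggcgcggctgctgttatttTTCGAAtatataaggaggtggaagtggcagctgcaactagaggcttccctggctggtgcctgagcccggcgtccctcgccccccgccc
In the window of DEPDC1 the CCAAT box begins at position -52 and the CHR core at -27 from the start, and in that of HMMR a pair of CHR cores begins at -28 and -22. The other large falls had other layouts. The only CHR core in the CDC25C window begins at 43, after the start. In the CDC20 window CHR cores begin at -178 and -65 and CCAAT boxes at -100 and -55. The CHR core of CDC25B, at -38 with a CCAAT box at -73, lies upstream of the start as in DEPDC1. The 2 genes lie at opposite ends of the starved-cell changes given next. A relation between layout and change was not tested. A match of letters is a description and not evidence of binding.

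The first question was how these genes stood in shCDK8 cells against shControl cells. Transcripts of the mitotic genes were lower in shCDK8 cells, at both times and in every role from mitotic entry to cytokinesis. After serum, 42 of the 54 genes fell and 0 rose, where 6.54% of all genes fell and 7.7% rose, and 0 were higher even at an unadjusted p below 0.05 (13.3% of all genes). In starved cells, 45 of the 54 fell and 0 rose, where 6.28% of all genes fell and 7.13% rose, and again 0 were higher at an unadjusted p below 0.05 (12.5% of all genes). The members were chosen with earlier results of these data known, so the shares of all genes stand beside these counts as description only. All 54 changes had a negative sign at both times (52.1% of all genes after serum and 54.0% in starved cells), with a median log2 change of -0.45 after serum and -0.54 in starved cells, against -0.01 over all genes tested at each time. Most of the falls were moderate: 3 genes, DEPDC1, HMMR and CDC25C, fell at least 2-fold, and they did so at both times. Over all 18417 genes, 52 were at least 2-fold lower after serum and 43 in starved cells, whether or not they passed the test. The changes of the 54 genes ran between -1.90 and -0.06 after serum and between -2.01 and -0.05 in starved cells.

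The same 42 genes fell at both times, where 4.53% of all genes did so. FOXM1, TPX2 and SMC4 fell in starved cells and missed the threshold after serum, with adjusted p = 0.0599, 0.0535 and 0.111. The other 9 genes, CDC25B, INCENP, CDCA8, BUB3, CENPF, CENPI, KIF15, KIF18A and CEP55, passed at neither time. Array by array, both shCDK8 arrays lay below both shControl arrays for 53 genes after serum (28.0% of all genes) and for 51 in starved cells (27.7% of all genes). The exceptions were CENPF at both times and CDC25B and KIF15 in starved cells. For 49 of the 54 genes all 4 shCDK8 arrays lay below all 4 shControl arrays, which held for 12.5% of all genes. Across the 54 genes the changes after serum and in starved cells, which come from different arrays of the same lines, correlated with Pearson's r = 0.972, against 0.874 across all genes. DEPDC1, HMMR and CDC25C had the largest falls at both times and weigh on the first r, which was not computed without them. Leaving out 1 array at a time left 30 to 42 genes lower after serum and 40 to 46 in starved cells. It ended the call of 13 genes after serum (CCNB2, BIRC5, BUB1B, MAD2L1, UBE2C, NDC80, SPC24, KIF20B, KIF23, ASPM, CKAP2, MKI67 and ECT2), whose highest adjusted p without 1 array ran between 0.0527 and 0.122. In starved cells it ended the call of 5 (FOXM1, UBE2C, SPC24, CKAP2 and SMC4), with highest adjusted p between 0.0501 and 0.0957. The recounts without 1 array are given for the members alone, with no share of all genes beside them. The change in starved cells was only weakly related to a gene's mean level over the 8 arrays (r = 0.165 across the 54 genes).

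**Figure D1:**
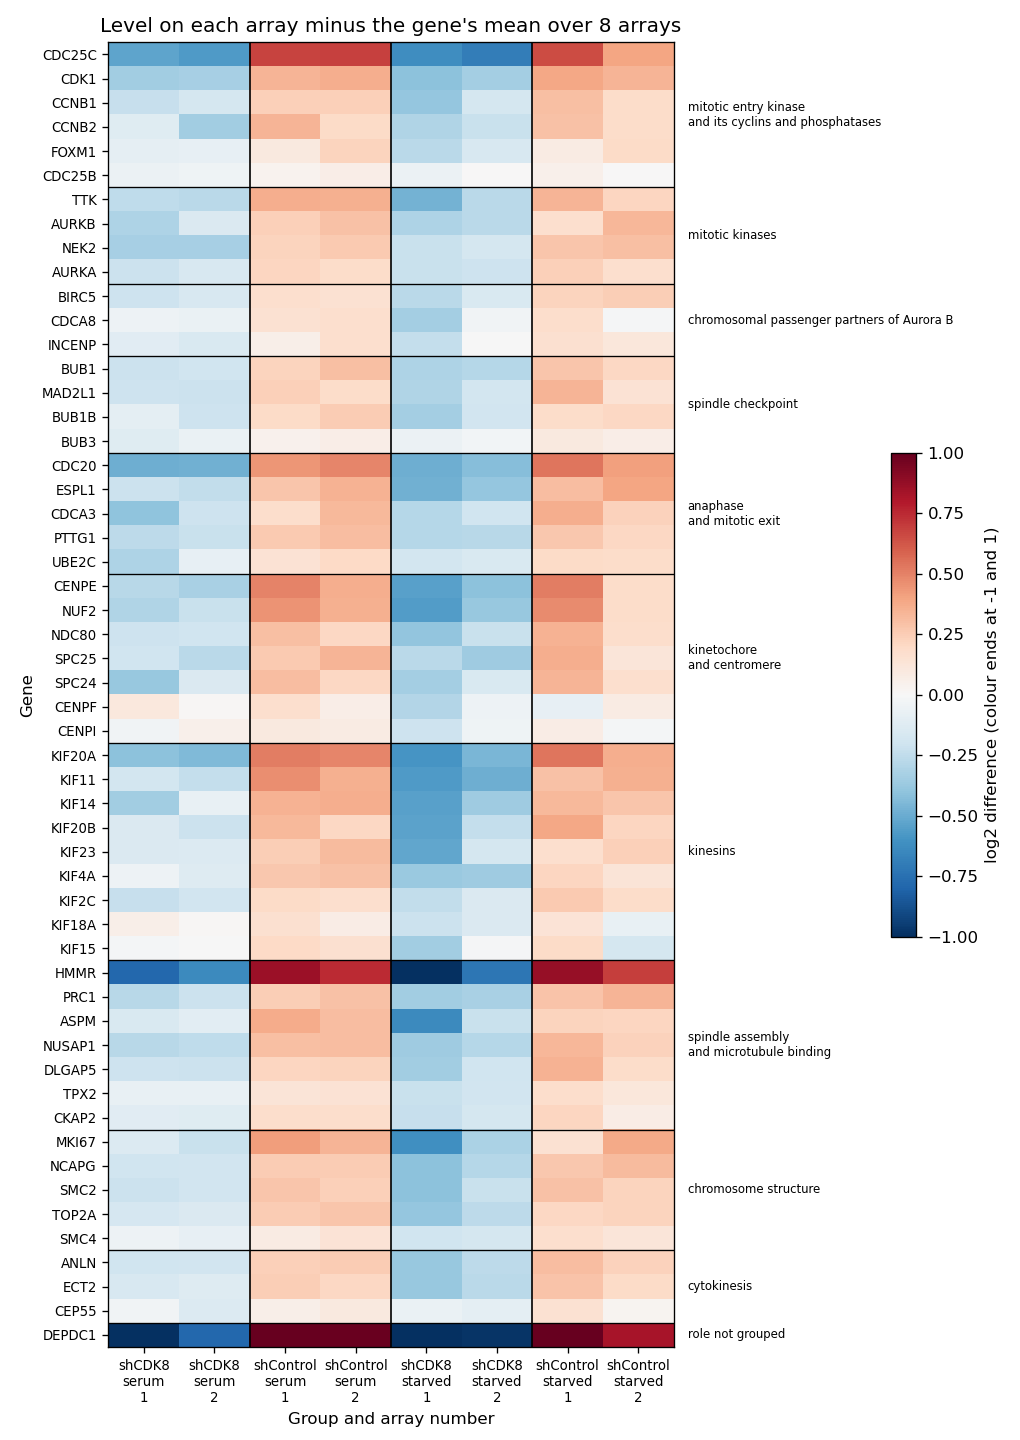
Log2 level of each of the 54 mitotic genes on each of the 8 arrays minus that gene's mean over the arrays, in colour, with genes grouped by role down the page and arrays across it. The shCDK8 columns are mostly blue (below the mean) and the shControl columns mostly red, and DEPDC1, HMMR and CDC25C are the deepest in both colours.

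Each array's median over the 54 genes, relative to each gene's mean over the 8 arrays, was -0.21 and -0.19 in shCDK8 cells after serum, against 0.25 and 0.25 in shControl cells, and -0.35 and -0.22 in starved shCDK8 cells, against 0.28 and 0.20 in starved shControl cells. Over all genes the same median stayed between -0.02 and 0.02 on every array. Of the 54 genes, 52 and 51 lay below their own mean on the shCDK8 arrays after serum, and 54 and 53 on the starved shCDK8 arrays. The shift was shared by nearly the whole set on each array, and duplicates lay further apart in starved cells: the median difference between duplicates over the 54 genes was 0.04 in shCDK8 cells and 0.05 in shControl cells after serum, and 0.11 in shCDK8 cells and 0.10 in shControl cells when starved. The arrays are bulk RNA, in which fewer cells in late cell cycle and less of each transcript per cell cannot be told apart. Between the lines the epithelial markers also moved: of 10 measured, 3 rose (KRT8, KRT18 and CDH1) and 1 fell (KRT19) after serum, and in starved cells 2 rose (KRT8 and KRT18) and 1 fell (KRT19). The summed level of those 10 markers was 14.25 to 14.33 in shCDK8 cells after serum, against 14.07 on both arrays of shControl cells, and 14.27 to 14.32 in starved shCDK8 cells, against 14.04 to 14.06 in starved shControl cells, on a log2 scale. Of 7 fibroblast markers none passed at either time, and of 6 blood and endothelial markers 1 (LYZ) rose after serum and none in starved cells. The part of these shifts in the falls of the mitotic genes was not tested.

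**Figure D2:**
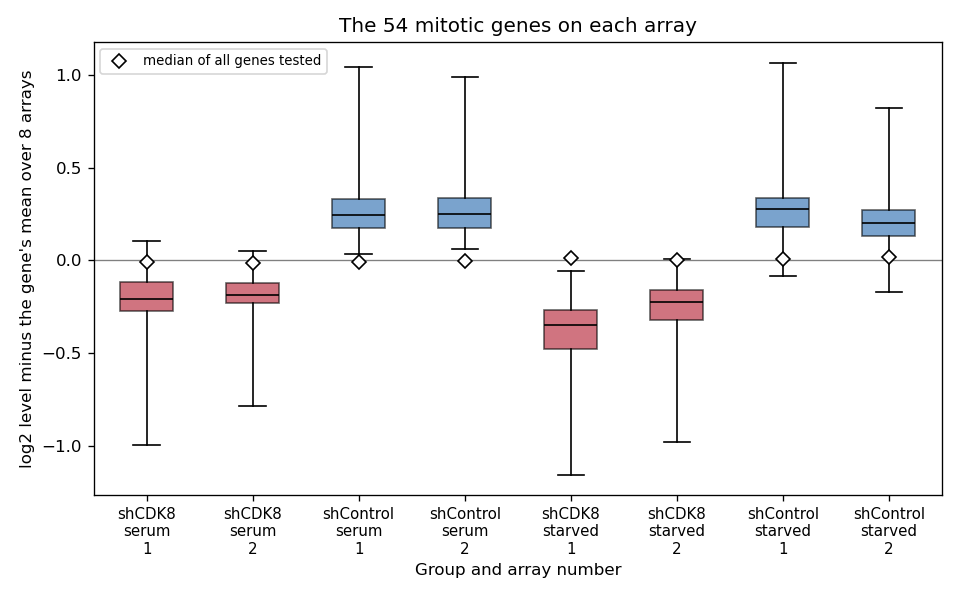
Spread of the 54 mitotic genes on each array, as log2 level minus the gene's mean over 8 arrays: boxes span the quartiles, lines mark the medians, whiskers reach the lowest and highest gene, and diamonds give the median of all 18417 genes. Medians are -0.21 and -0.19 (shCDK8, serum), 0.25 and 0.25 (shControl, serum), -0.35 and -0.22 (shCDK8, starved) and 0.28 and 0.20 (shControl, starved), while the diamonds stay near 0.

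Among the genes of mitotic entry, 4 of 6 fell after serum and 5 of 6 in starved cells, with medians of -0.47 and -0.51. CDC25C, the phosphatase that helps to switch CDK1 on at the onset of mitosis, read 6.70 and 6.66 in shCDK8 cells after serum, against 7.91 and 7.92 in shControl cells, and 6.62 and 6.54 in starved shCDK8 cells, against 7.89 and 7.63 in starved shControl cells. The highest shCDK8 array lay 0.92 below the lowest shControl array, taking both times together. The gene fell 2.35-fold after serum (log2 -1.23 ± 0.09, adjusted p = 1.58e-05) and 2.26-fold in starved cells (log2 -1.18 ± 0.09, adjusted p = 2.41e-05). Its relative CDC25B, which acts earlier and on centrosomal CDK1, had the smallest difference of the set in starved cells, whereas after serum CENPF, CENPI and KIF18A differed less. Its probe set read 9.40 and 9.41 in shCDK8 cells after serum, against 9.49 and 9.52 in shControl cells, and 9.40 and 9.46 in starved shCDK8 cells, against 9.51 and 9.46 in starved shControl cells. The starved arrays overlapped, and neither difference passed (log2 -0.10 ± 0.06, adjusted p = 0.389 after serum, -0.05 ± 0.06, adjusted p = 0.677 in starved cells).

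CDK1, the kinase at the centre of the entry switch, read 8.11 and 8.13 in shCDK8 cells after serum, against 8.80 and 8.83 in shControl cells, and 8.05 and 8.12 in starved shCDK8 cells, against 8.85 and 8.80 in starved shControl cells. Duplicates differed by at most 0.07, and the fall was 1.61-fold after serum (log2 -0.69 ± 0.06, adjusted p = 9.63e-05) and 1.67-fold in starved cells (log2 -0.74 ± 0.06, adjusted p = 6.17e-05). The falls of its partners were smaller. CCNB1, cyclin B1, changed by -0.45 ± 0.08 (adjusted p = 0.00583) after serum and by -0.52 ± 0.08 (adjusted p = 0.00257) in starved cells. CCNB2, cyclin B2, changed by -0.50 ± 0.09 (adjusted p = 0.00549) after serum and by -0.50 ± 0.09 (adjusted p = 0.00590) in starved cells. FOXM1, the forkhead transcription factor that drives many of these genes in G2, differed by -0.24 ± 0.08 after serum (adjusted p = 0.0599), short of the threshold, and fell by 0.35 on the log2 scale in starved cells (adjusted p = 0.0127).

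All 4 mitotic kinases of the set fell at both times, with medians of -0.53 after serum and -0.51 in starved cells. TTK, the MPS1 kinase that recruits checkpoint proteins to unattached kinetochores, read 8.14 and 8.12 in shCDK8 cells after serum, against 8.75 and 8.74 in shControl cells, and 7.92 and 8.12 in starved shCDK8 cells, against 8.73 and 8.60 in starved shControl cells. The lowest of the shControl arrays stood 0.47 above the highest shCDK8 array, and the change was -0.62 ± 0.08 (adjusted p = 0.000852) after serum and -0.65 ± 0.08 (adjusted p = 0.000660) in starved cells. NEK2, which separates centrosomes, changed by -0.57 ± 0.06 (adjusted p = 0.000265) after serum and by -0.49 ± 0.06 (adjusted p = 0.000710) in starved cells. AURKB, Aurora B, the error-correcting kinase at the centromere, changed by -0.49 ± 0.08 (adjusted p = 0.00351) after serum and by -0.54 ± 0.08 (adjusted p = 0.00212) in starved cells. AURKA, Aurora A, the centrosomal kinase, had the smallest change of the 4 at both times and read 8.63 and 8.69 in shCDK8 cells after serum, against 9.07 and 9.03 in shControl cells, and 8.62 and 8.64 in starved shCDK8 cells, against 9.08 and 9.02 in starved shControl cells. Even so its groups did not overlap, and the change was -0.39 ± 0.06 (adjusted p = 0.00312) after serum and -0.42 ± 0.06 (adjusted p = 0.00214) in starved cells.

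The partners of Aurora B in the chromosomal passenger complex showed smaller differences, with 1 of 3 falling at each time and medians of -0.24 and -0.27. BIRC5, survivin, which docks the complex on the centromere, read 9.05 and 9.10 in shCDK8 cells after serum, against 9.43 and 9.41 in shControl cells, and 8.99 and 9.11 in starved shCDK8 cells, against 9.48 and 9.51 in starved shControl cells. It fell 1.27-fold after serum (log2 -0.35 ± 0.07, adjusted p = 0.00768) and 1.36-fold in starved cells (log2 -0.44 ± 0.07, adjusted p = 0.00208). A second probe set of BIRC5, dimmer on all arrays, differed by -0.35 ± 0.09 after serum and by -0.10 ± 0.09 in starved cells and passed at neither time in a fit over all 33297 probe sets (adjusted p = 0.0703 and 0.660), so the 2 probe sets disagree in starved cells. INCENP, the scaffold that activates Aurora B, read 8.36 and 8.32 in shCDK8 cells after serum, against 8.52 and 8.63 in shControl cells, and 8.23 and 8.46 in starved shCDK8 cells, against 8.62 and 8.58 in starved shControl cells. The starved shCDK8 duplicates were 0.24 apart, and the differences of -0.24 ± 0.09 (adjusted p = 0.0988) after serum and -0.26 ± 0.09 (adjusted p = 0.0852) in starved cells did not pass. CDCA8, borealin, read 7.82 and 7.80 in shCDK8 cells after serum, against 8.02 and 8.04 in shControl cells, and 7.53 and 7.84 in starved shCDK8 cells, against 8.05 and 7.86 in starved shControl cells. Its second starved array of shCDK8 cells lay within 0.02 of the lower shControl array, and its differences were -0.22 ± 0.10 (adjusted p = 0.222) after serum and -0.27 ± 0.10 (adjusted p = 0.128) in starved cells.

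**Figure D3:**
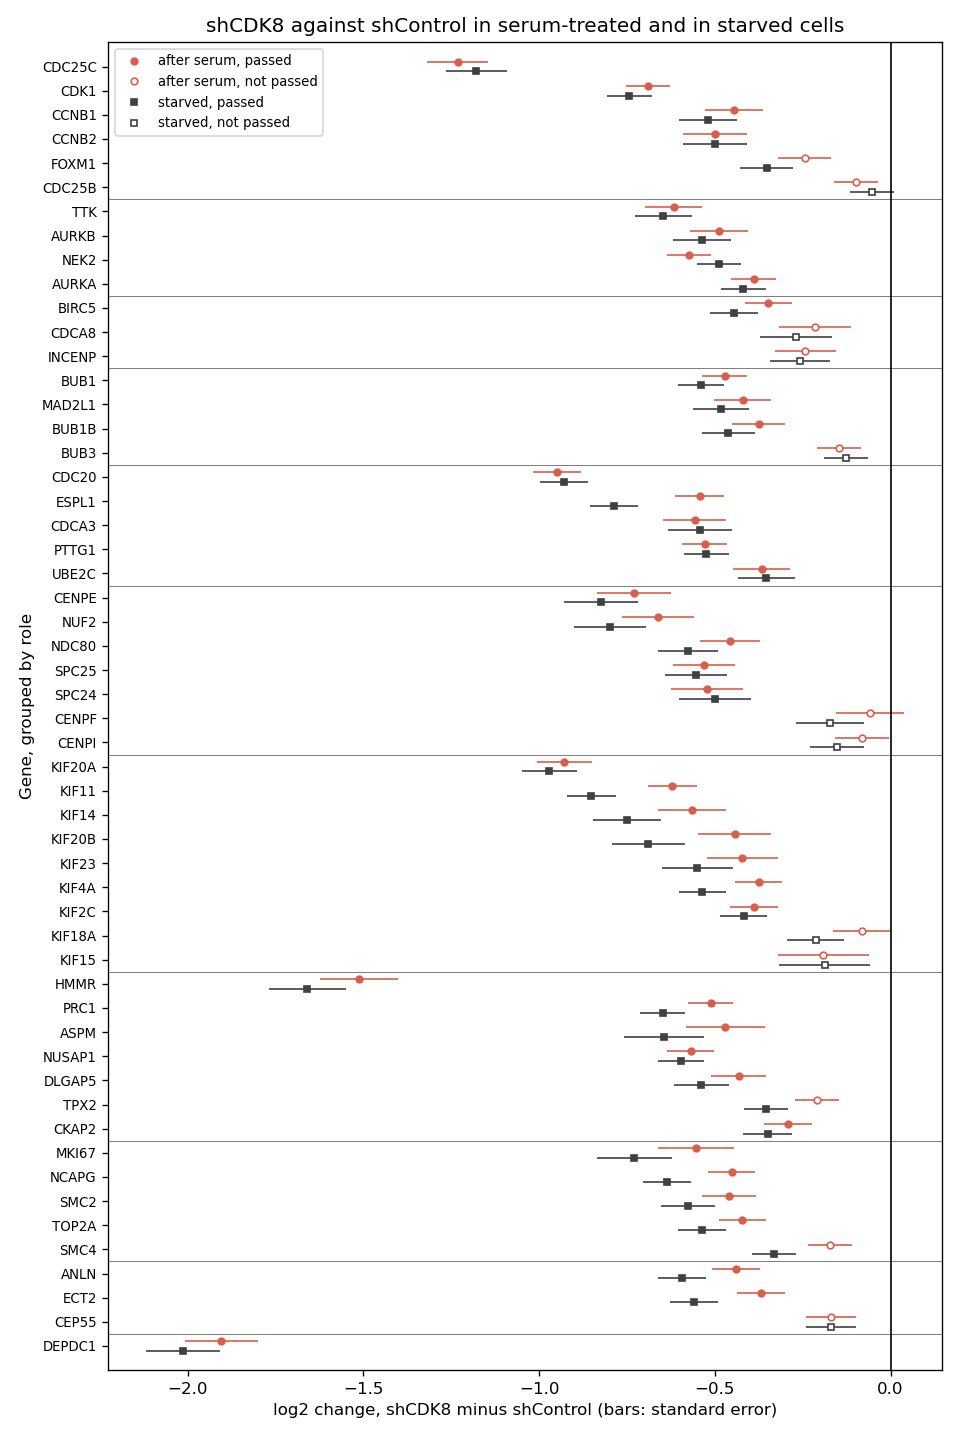
Log2 change in shCDK8 against shControl cells for each of the 54 genes, after serum (circles) and in starved cells (squares), with standard errors as bars; filled symbols passed at an adjusted p below 0.05. All symbols lie left of 0, 42 circles and 45 squares are filled, and DEPDC1, HMMR and CDC25C lie beyond -1.

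In the spindle checkpoint, 3 of 4 genes fell at each time, with medians of -0.40 after serum and -0.47 in starved cells. BUB1, the kinase that marks kinetochores for the checkpoint, read 9.31 and 9.33 in shCDK8 cells after serum, against 9.75 and 9.83 in shControl cells, and 9.22 and 9.24 in starved shCDK8 cells, against 9.81 and 9.74 in starved shControl cells. The 4 groups were tight and separate by line, and the change was -0.47 ± 0.07 (adjusted p = 0.00114) after serum and -0.54 ± 0.07 (adjusted p = 0.000551) in starved cells. BUB1B, which encodes the inhibitory BubR1 protein, changed by -0.38 ± 0.07 (adjusted p = 0.00848) after serum and by -0.46 ± 0.07 (adjusted p = 0.00292) in starved cells. MAD2L1, the MAD2 protein that binds CDC20, changed by -0.42 ± 0.08 (adjusted p = 0.00657) after serum and by -0.48 ± 0.08 (adjusted p = 0.00330) in starved cells. BUB3, the adaptor shared by BUB1 and BubR1, was the exception. It read 10.90 and 10.95 in shCDK8 cells after serum, against 11.06 and 11.08 in shControl cells. When starved, it read 10.96 and 10.99 in shCDK8 cells, against 11.12 and 11.08 in shControl cells. Both shCDK8 arrays lay below both shControl arrays at each time, but by little, and neither difference passed (log2 -0.15 ± 0.06, adjusted p = 0.170 after serum, -0.13 ± 0.06, adjusted p = 0.25 in starved cells).

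All 5 genes placed under anaphase and mitotic exit fell at both times, with a median of -0.54 at each. CDC20, the activator of the anaphase-promoting complex that the checkpoint holds back, read 9.27 and 9.28 in shCDK8 cells after serum, against 10.20 and 10.25 in shControl cells, and 9.27 and 9.33 in starved shCDK8 cells, against 10.29 and 10.17 in starved shControl cells. Its duplicates differed by at most 0.12 and the fall was 1.93-fold after serum (log2 -0.95 ± 0.07, adjusted p = 1.88e-05) and 1.90-fold in starved cells (log2 -0.93 ± 0.07, adjusted p = 2.41e-05). ESPL1, separase, the protease that opens cohesin, read 8.01 and 7.99 in shCDK8 cells after serum, against 8.51 and 8.57 in shControl cells, and 7.75 and 7.84 in starved shCDK8 cells, against 8.54 and 8.62 in starved shControl cells. Its fall was 1.46-fold after serum (log2 -0.54 ± 0.07, adjusted p = 0.000694) and 1.72-fold in starved cells (log2 -0.79 ± 0.07, adjusted p = 7.19e-05). PTTG1, securin, the inhibitor of separase, changed by -0.53 ± 0.06 (adjusted p = 0.000490) after serum and by -0.52 ± 0.06 (adjusted p = 0.000543) in starved cells. CDCA3, an F-box-like protein linked to the destruction of mitotic inhibitors, changed by -0.56 ± 0.09 (adjusted p = 0.00282) after serum and by -0.54 ± 0.09 (adjusted p = 0.00339) in starved cells. That link is to mitotic entry, so its place in this role is loose. UBE2C, the ubiquitin-conjugating enzyme of the anaphase-promoting complex, had the smallest changes here, -0.37 ± 0.08 (adjusted p = 0.0145) after serum and -0.35 ± 0.08 (adjusted p = 0.0181) in starved cells. It read 8.98 and 9.21 in shCDK8 cells after serum, against 9.44 and 9.49 in shControl cells, and 9.11 and 9.14 in starved shCDK8 cells, against 9.49 and 9.47 in starved shControl cells. The shCDK8 arrays after serum were 0.23 apart but still below both shControl arrays.

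The kinetochore and centromere genes divided into those that fell, 5 of 7 at each time, and CENPF and CENPI, which passed at neither. Medians were -0.52 after serum and -0.55 in starved cells. CENPE, the kinesin-like motor that carries chromosomes to the spindle equator, read 6.32 and 6.27 in shCDK8 cells after serum, against 7.10 and 6.96 in shControl cells, and 6.06 and 6.19 in starved shCDK8 cells, against 7.11 and 6.78 in starved shControl cells. It fell 1.66-fold after serum (log2 -0.73 ± 0.11, adjusted p = 0.00155) and 1.77-fold in starved cells (log2 -0.82 ± 0.11, adjusted p = 0.000774), and its starved shControl duplicates were 0.32 apart. All 4 subunits of the NDC80 complex, the main coupler of kinetochores to microtubules, were in the set, and all 4 fell at both times. NUF2 read 8.23 and 8.31 in shCDK8 cells after serum, against 8.98 and 8.89 in shControl cells, and 7.97 and 8.16 in starved shCDK8 cells, against 9.01 and 8.72 in starved shControl cells. Its change was -0.66 ± 0.10 (adjusted p = 0.00229) after serum and -0.80 ± 0.10 (adjusted p = 0.000782) in starved cells. NDC80 itself changed by -0.46 ± 0.09 (adjusted p = 0.00612) after serum and by -0.58 ± 0.09 (adjusted p = 0.00176) in starved cells. SPC25 changed by -0.53 ± 0.09 (adjusted p = 0.00325) after serum and by -0.55 ± 0.09 (adjusted p = 0.00262) in starved cells. SPC24 changed by -0.52 ± 0.10 (adjusted p = 0.00783) after serum and by -0.50 ± 0.10 (adjusted p = 0.0105) in starved cells.

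CENPF, a large protein of the outer kinetochore, read 9.80 and 9.71 in shCDK8 cells after serum, against 9.87 and 9.76 in shControl cells, and 9.40 and 9.65 in starved shCDK8 cells, against 9.62 and 9.78 in starved shControl cells. Its arrays overlapped at both times, and the differences were -0.06 ± 0.10 (adjusted p = 0.782) after serum and -0.17 ± 0.10 (adjusted p = 0.312) in starved cells. CENPI, part of the constitutive centromere network, read 7.82 and 7.90 in shCDK8 cells after serum, against 7.95 and 7.93 in shControl cells, and 7.65 and 7.81 in starved shCDK8 cells, against 7.93 and 7.83 in starved shControl cells. The nearest arrays of the 2 lines were only 0.03 apart after serum and 0.02 in starved cells, and the differences were -0.08 ± 0.08 (adjusted p = 0.589) after serum and -0.15 ± 0.08 (adjusted p = 0.262) in starved cells. The probe set shared by CENPA and SLC35F6 read 8.002 and 7.97 in shCDK8 cells after serum, against 8.25 and 8.29 in shControl cells, and 7.99 and 8.01 in starved shCDK8 cells, against 8.31 and 8.41 in starved shControl cells. It differed by -0.29 ± 0.06 after serum (adjusted p = 0.0522 over the 33297 probe sets) and fell by 0.36 on the log2 scale in starved cells (adjusted p = 0.0249), and the share of each gene in that value is not known.

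Of the 9 kinesins, 7 fell at each time, with medians of -0.42 after serum and -0.55 in starved cells. KIF20A, the motor that brings the passenger complex to the midzone, read 8.58 and 8.54 in shCDK8 cells after serum, against 9.50 and 9.48 in shControl cells, and 8.40 and 8.53 in starved shCDK8 cells, against 9.53 and 9.35 in starved shControl cells. It had the largest fall of the family, 1.90-fold after serum (log2 -0.93 ± 0.08, adjusted p = 5.82e-05) and 1.96-fold in starved cells (log2 -0.97 ± 0.08, adjusted p = 4.68e-05). KIF11, the Eg5 motor that pushes spindle poles apart, read 8.06 and 8.01 in shCDK8 cells after serum, against 8.71 and 8.60 in shControl cells, and 7.68 and 7.76 in starved shCDK8 cells, against 8.54 and 8.60 in starved shControl cells. The fall was 1.54-fold after serum (log2 -0.62 ± 0.07, adjusted p = 0.000353) and 1.80-fold in starved cells (log2 -0.85 ± 0.07, adjusted p = 4.88e-05). KIF14, a midbody kinesin needed for cytokinesis, read 7.73 and 8.001 in shCDK8 cells after serum, against 8.42 and 8.44 in shControl cells, and 7.53 and 7.72 in starved shCDK8 cells, against 8.40 and 8.35 in starved shControl cells. Its shCDK8 arrays after serum were 0.28 apart, and the changes were -0.57 ± 0.10 (adjusted p = 0.00407) after serum and -0.75 ± 0.10 (adjusted p = 0.000833) in starved cells.

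KIF20B, a relative of KIF20A, changed by -0.44 ± 0.10 (adjusted p = 0.0186) after serum and by -0.69 ± 0.10 (adjusted p = 0.00192) in starved cells. KIF23, the motor subunit of centralspindlin, changed by -0.42 ± 0.10 (adjusted p = 0.0215) after serum and by -0.55 ± 0.10 (adjusted p = 0.00612) in starved cells. KIF4A, a chromosome-bound kinesin that shortens midzone microtubules, changed by -0.38 ± 0.07 (adjusted p = 0.00466) after serum and by -0.54 ± 0.07 (adjusted p = 0.000623) in starved cells. A further probe set, paired with both KIF4A and KIF4B, differed by -0.28 ± 0.08 after serum and fell by 0.54 on the log2 scale in starved cells (adjusted p = 0.123 and 0.0145 over all probe sets). KIF2C, the microtubule-depolymerising MCAK, changed by -0.39 ± 0.07 (adjusted p = 0.00419) after serum and by -0.42 ± 0.07 (adjusted p = 0.00289) in starved cells. KIF18A, which damps chromosome oscillation, and KIF15, which can stand in for Eg5, passed at neither time. KIF18A read 8.74 and 8.69 in shCDK8 cells after serum, against 8.84 and 8.75 in shControl cells, and 8.46 and 8.53 in starved shCDK8 cells, against 8.81 and 8.60 in starved shControl cells. Its lines were separate at each time, yet by 0.02 after serum and 0.07 in starved cells, and the differences were -0.08 ± 0.08 (adjusted p = 0.604) after serum and -0.21 ± 0.08 (adjusted p = 0.133) in starved cells. KIF15 read 7.29 and 7.30 in shCDK8 cells after serum, against 7.50 and 7.47 in shControl cells, and 6.96 and 7.30 in starved shCDK8 cells, against 7.50 and 7.13 in starved shControl cells. The starved pairs were 0.34 (shCDK8) and 0.36 (shControl) apart and overlapped, and the differences were -0.19 ± 0.13 (adjusted p = 0.413) after serum and -0.19 ± 0.13 (adjusted p = 0.427) in starved cells.

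Among the genes of spindle assembly and microtubule binding, 6 of 7 fell after serum and 7 of 7 in starved cells, with medians of -0.47 and -0.60. HMMR, the receptor for hyaluronan-mediated motility, which inside cells binds spindle microtubules and TPX2, read 6.83 and 6.99 in shCDK8 cells after serum, against 8.47 and 8.37 in shControl cells, and 6.59 and 6.90 in starved shCDK8 cells, against 8.49 and 8.31 in starved shControl cells. The lowest shControl array stood 1.33 above the highest shCDK8 array, and the fall was 2.85-fold after serum (log2 -1.51 ± 0.11, adjusted p = 1.92e-05) and 3.16-fold in starved cells (log2 -1.66 ± 0.11, adjusted p = 1.14e-05). PRC1, which bundles the microtubules of the midzone, changed by -0.51 ± 0.06 (adjusted p = 0.000652) after serum and by -0.65 ± 0.06 (adjusted p = 0.000164) in starved cells. NUSAP1, which stabilises microtubules around chromatin, changed by -0.57 ± 0.07 (adjusted p = 0.000433) after serum and by -0.60 ± 0.07 (adjusted p = 0.000338) in starved cells. ASPM, a spindle-pole protein, changed by -0.47 ± 0.11 (adjusted p = 0.0216) after serum and by -0.64 ± 0.11 (adjusted p = 0.00463) in starved cells, and its first starved shCDK8 array read 7.44 against 7.86 on the second.

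DLGAP5, which stabilises the microtubules that reach kinetochores, changed by -0.43 ± 0.08 (adjusted p = 0.00517) after serum and by -0.54 ± 0.08 (adjusted p = 0.00158) in starved cells. TPX2, the activator of Aurora A on the spindle, read 10.02 and 10.02 in shCDK8 cells after serum, against 10.22 and 10.24 in shControl cells, and 9.87 and 9.90 in starved shCDK8 cells, against 10.27 and 10.21 in starved shControl cells. All shCDK8 arrays lay below all shControl arrays, but the difference of -0.21 ± 0.06 (adjusted p = 0.0535) after serum was just short of the threshold, whereas that of -0.35 ± 0.06 (adjusted p = 0.00466) in starved cells passed. CKAP2, a spindle-associated protein, had the smallest change of the role in starved cells and read 9.55 and 9.54 in shCDK8 cells after serum, against 9.83 and 9.84 in shControl cells, and 9.43 and 9.48 in starved shCDK8 cells, against 9.88 and 9.74 in starved shControl cells. It changed by -0.29 ± 0.07 (adjusted p = 0.0202) after serum and by -0.35 ± 0.07 (adjusted p = 0.00893) in starved cells.

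Genes of chromosome structure fell in 4 of 5 cases after serum and in 5 of 5 in starved cells, with medians of -0.45 and -0.58. MKI67, the Ki-67 protein that coats mitotic chromosomes and is the usual marker of proliferation, read 10.00 and 9.91 in shCDK8 cells after serum, against 10.55 and 10.47 in shControl cells, and 9.52 and 9.82 in starved shCDK8 cells, against 10.28 and 10.51 in starved shControl cells. The first starved shCDK8 array was 0.29 below the second, and the changes were -0.55 ± 0.11 (adjusted p = 0.00760) after serum and -0.73 ± 0.11 (adjusted p = 0.00175) in starved cells. NCAPG and SMC2, a regulatory and a core subunit of condensin, both fell at both times. NCAPG changed by -0.45 ± 0.07 (adjusted p = 0.00181) after serum and by -0.64 ± 0.07 (adjusted p = 0.000253) in starved cells. SMC2 changed by -0.46 ± 0.08 (adjusted p = 0.00346) after serum and by -0.58 ± 0.08 (adjusted p = 0.000979) in starved cells. TOP2A, the topoisomerase that untangles sister chromatids, changed by -0.42 ± 0.07 (adjusted p = 0.00262) after serum and by -0.54 ± 0.07 (adjusted p = 0.000665) in starved cells. SMC4, the second core subunit of condensin, read 9.64 and 9.61 in shCDK8 cells after serum, against 9.77 and 9.83 in shControl cells, and 9.49 and 9.52 in starved shCDK8 cells, against 9.86 and 9.81 in starved shControl cells. The lines were separate at both times, and the differences were -0.17 ± 0.06 (adjusted p = 0.111) after serum, which did not pass, and -0.33 ± 0.06 (adjusted p = 0.00728) in starved cells, which did.

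Of the cytokinesis genes, 2 of 3 fell at each time, with medians of -0.37 after serum and -0.56 in starved cells. ANLN, anillin, the scaffold of the contractile ring, read 9.28 and 9.29 in shCDK8 cells after serum, against 9.72 and 9.73 in shControl cells, and 9.09 and 9.21 in starved shCDK8 cells, against 9.79 and 9.70 in starved shControl cells. The change was -0.44 ± 0.07 (adjusted p = 0.00231) after serum and -0.59 ± 0.07 (adjusted p = 0.000421) in starved cells. ECT2, the exchange factor that switches on RhoA at the cleavage furrow, changed by -0.37 ± 0.07 (adjusted p = 0.00614) after serum and by -0.56 ± 0.07 (adjusted p = 0.000609) in starved cells. CEP55, which organises abscission at the midbody, read 8.94 and 8.85 in shCDK8 cells after serum, against 9.04 and 9.08 in shControl cells, and 8.92 and 8.89 in starved shCDK8 cells, against 9.13 and 9.01 in starved shControl cells. Although the lines did not overlap, neither difference passed (log2 -0.17 ± 0.07, adjusted p = 0.166 after serum, -0.17 ± 0.07, adjusted p = 0.173 in starved cells).

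DEPDC1, which was placed in no role and has been described as a mitosis-linked protein overexpressed in several cancers, had the largest fall of the set. It read 8.71 and 8.92 in shCDK8 cells after serum, against 10.75 and 10.69 in shControl cells, and 8.55 and 8.72 in starved shCDK8 cells, against 10.77 and 10.53 in starved shControl cells. The fall was 3.74-fold after serum (log2 -1.90 ± 0.10, adjusted p = 2.73e-06) and 4.04-fold in starved cells (log2 -2.01 ± 0.10, adjusted p = 2.22e-06). The lowest shControl array stood 1.61 above the highest shCDK8 array, against at most 0.24 between duplicates.

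**Figure D4:**
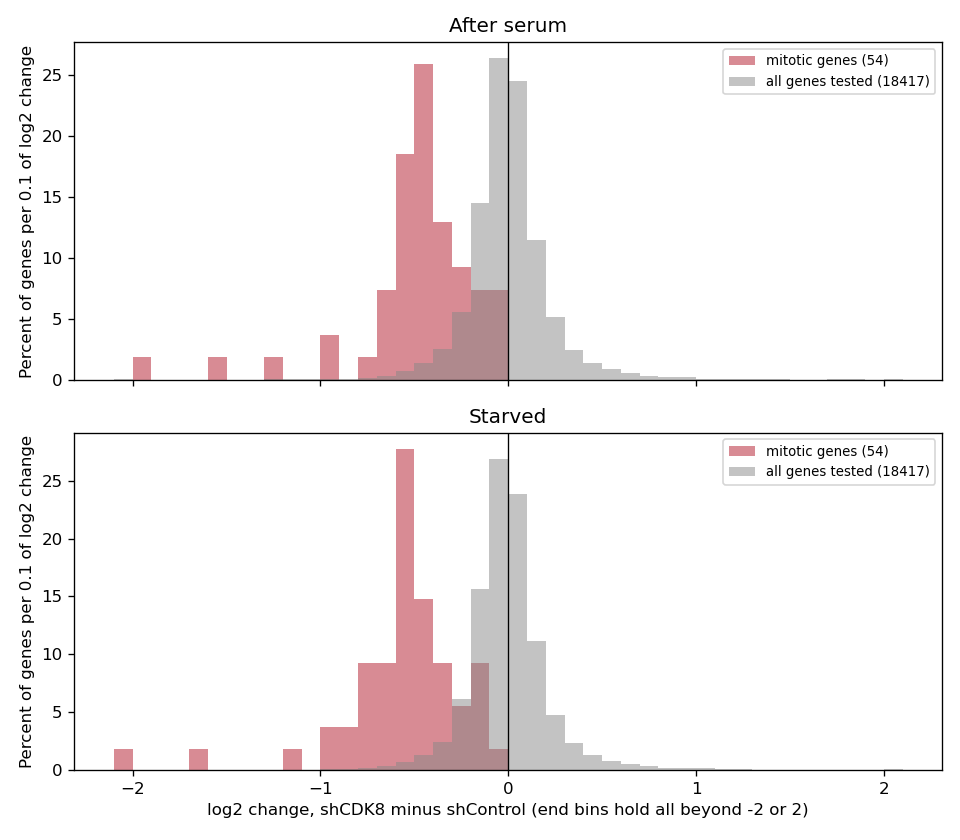
Distribution of the log2 change in shCDK8 against shControl cells over the 54 mitotic genes and over all 18417 genes tested, as the percent of genes in each bin of 0.1, after serum (top) and in starved cells (bottom). The mitotic genes centre on -0.45 and -0.54 with no gene above 0, and all genes centre on -0.01.

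The second question was whether 30 min of serum moved these transcripts. No mitotic gene passed limma's test in either line. In shCDK8 cells 0 of 54 rose and 0 fell, where 0.25% of all genes rose and 0.00543% fell, and in shControl cells 0 rose and 0 fell, where 0.424% of all genes rose and 0.038% fell. In shCDK8 cells the median change was 0.11, against -0.01 over all genes, 44 of 54 changes were positive (46.3% of all genes), and both serum arrays lay above both starved arrays for 30 genes (19.1% of all genes) and below them for 2, NEK2 and BUB3 (22.2% of all genes). At an unadjusted p below 0.05, 10 genes were higher (4.44% of all genes) and 0 lower (5.15%). That median depended on single arrays: it was 0.039 without the first starved shCDK8 array, which read low for most members, and 0.17 without the second. In shControl cells the median was 0.02, 30 changes were positive (44.1% of all genes), and 0 genes were at an unadjusted p below 0.05, where 3.48% of all genes were higher and 5.54% lower at that level. That median was -0.035 without the second starved shControl array. Both serum arrays lay above both starved ones for 9 genes (16.2% of all genes) and below them for 4 (23.5% of all genes).

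KIF11 had the smallest adjusted p in shCDK8 cells, 0.199, with a change of 0.32 ± 0.07 and with both serum arrays (8.06 and 8.01) above both starved arrays (7.68 and 7.76). The next 4 by p were KIF4A with a change of 0.27 ± 0.07 (adjusted p = 0.277), ESPL1 with 0.20 ± 0.07 (adjusted p = 0.446), KIF18A with 0.22 ± 0.08 (adjusted p = 0.475) and MKI67 with 0.29 ± 0.11 (adjusted p = 0.476), none of which passed. KIF4A read 8.97 and 8.89 after serum, against 8.65 and 8.67 in starved cells of the same line, and KIF18A read 8.74 and 8.69 against 8.46 and 8.53. Both are pairs without overlap. In shControl cells the 5 smallest p belonged to CDC25C with a change of 0.16 ± 0.09 (adjusted p = 0.635), KIF4A with 0.11 ± 0.07 (adjusted p = 0.661), KIF15 with 0.17 ± 0.13 (adjusted p = 0.748), KIF11 with 0.09 ± 0.07 (adjusted p = 0.771) and CENPF with 0.11 ± 0.10 (adjusted p = 0.784). None of these passed, and the smallest adjusted p among the 54 genes there was 0.635.

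The third question was whether the serum response differed between the lines. The fall in shCDK8 against shControl cells was smaller after serum than in starved cells for 42 of the 54 genes, which is the same as a positive difference of responses, and 52.6% of all genes had a positive difference. In limma's test 0 genes passed the test of that difference, and 0.0% of all genes did in either direction. Its median over the 54 genes was 0.08, against 0.01 over all genes, and 2 genes, both higher, were at an unadjusted p below 0.05, where 2.0% of all genes were higher and 1.82% lower at that level. By p the first 5 were ESPL1 with a difference of 0.24 ± 0.10, KIF11 with 0.23 ± 0.10, ECT2 with 0.19 ± 0.10, NCAPG with 0.18 ± 0.10 and SMC4 with 0.16 ± 0.09, and the adjusted p of each was 1.00. The median was 0.019 without the first starved shCDK8 array, 0.023 without the first starved shControl array and 0.16 without the second starved shCDK8 array. A difference in response was not detected with these 8 arrays.

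To see how far the falls reached beyond the 54 genes, 138 further genes of the same pathway were listed, of which 134 were measured. After serum 51 of them fell and 3 rose (median -0.18), where 6.54% of all genes fell and 7.7% rose, and in starved cells 61 fell and 5 rose (median -0.24), where 6.28% fell and 7.13% rose. These lists were written with the earlier results known, and nothing is claimed from their totals beyond the counts. Among 33 further kinetochore, centromere and checkpoint genes, 14 fell after serum and 17 in starved cells, with medians of -0.30 and -0.33. SKA2, of the SKA complex that strengthens kinetochore attachment, changed by -0.70 ± 0.09 (adjusted p = 0.001) after serum and by -0.75 ± 0.09 (adjusted p = 0.000702) in starved cells. CENPN changed by -0.49 ± 0.08 (adjusted p = 0.00339) after serum and by -0.51 ± 0.08 (adjusted p = 0.00278) in starved cells. CENPW changed by -0.53 ± 0.13 (adjusted p = 0.0254) after serum, and its difference of -0.32 ± 0.13 (adjusted p = 0.157) in starved cells did not pass. CENPC changed by -0.47 ± 0.06 (adjusted p = 0.00109) in starved cells, and its difference of -0.08 ± 0.06 (adjusted p = 0.511) after serum did not pass.

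Of 17 further genes of the anaphase-promoting complex and its partners, 3 fell and 0 rose after serum, and 4 fell and 1 rose in starved cells, with medians of -0.06 and -0.10. Those that fell were led by enzymes and regulators that work with it. UBE2S, which extends its ubiquitin chains, changed by -0.52 ± 0.08 (adjusted p = 0.00253) after serum and by -0.32 ± 0.08 (adjusted p = 0.0286) in starved cells. FBXO5, its inhibitor EMI1, changed by -0.32 ± 0.09 (adjusted p = 0.0359) after serum and by -0.36 ± 0.09 (adjusted p = 0.0205) in starved cells, and ANAPC16, a subunit, rose by 0.22 on the log2 scale in starved cells (adjusted p = 0.0436).

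Among 16 further cohesin and condensin genes, 6 fell and 1 rose after serum, and 9 fell and 1 rose in starved cells, with medians of -0.27 and -0.29. The condensin subunit NCAPD2 changed by -0.60 ± 0.07 (adjusted p = 0.000456) after serum and by -0.68 ± 0.07 (adjusted p = 0.000235) in starved cells, and NCAPH changed by -0.46 ± 0.09 (adjusted p = 0.00594) after serum and by -0.48 ± 0.09 (adjusted p = 0.00498) in starved cells. The gene that rose at both times was SMC3, a core subunit of cohesin, with 0.30 ± 0.07 (adjusted p = 0.0143) after serum and 0.33 ± 0.07 (adjusted p = 0.00929) in starved cells. It read 9.67 and 9.61 in shCDK8 cells after serum, against 9.30 and 9.39 in shControl cells, and 9.58 and 9.64 in starved shCDK8 cells, against 9.29 and 9.26 in starved shControl cells.

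Of 38 further genes of the spindle, the centrosome and cytokinesis, 19 fell after serum and 22 in starved cells and none rose, with medians of -0.23 and -0.29. PLK1, the kinase that acts at nearly every step of mitosis, changed by -0.43 ± 0.06 (adjusted p = 0.00192) after serum and by -0.57 ± 0.06 (adjusted p = 0.000385) in starved cells. ARHGAP11A, a RhoA regulator of cytokinesis, changed by -0.55 ± 0.07 (adjusted p = 0.000946) after serum and by -0.65 ± 0.07 (adjusted p = 0.000366) in starved cells. CEP152 and STIL, which build new centrioles, also fell at both times. CEP152 changed by -0.63 ± 0.07 (adjusted p = 0.000357) after serum and by -0.54 ± 0.07 (adjusted p = 0.000848) in starved cells. STIL changed by -0.48 ± 0.07 (adjusted p = 0.00172) after serum and by -0.58 ± 0.07 (adjusted p = 0.000590) in starved cells.

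The 24 regulators of mitotic transcription and mitotic entry held 9 that fell and 1 that rose at each time, with medians of -0.16 after serum and -0.17 in starved cells. CCNA2, cyclin A2, changed by -0.47 ± 0.08 (adjusted p = 0.00490) after serum and by -0.56 ± 0.08 (adjusted p = 0.00190) in starved cells, and CCNF, cyclin F, by -0.46 ± 0.07 (adjusted p = 0.00154) after serum and by -0.49 ± 0.07 (adjusted p = 0.00104) in starved cells. RBL1, the pocket protein p107, changed by -0.36 ± 0.08 (adjusted p = 0.0151) after serum and by -0.45 ± 0.08 (adjusted p = 0.00497) in starved cells. LIN9, a core subunit that the repressive DREAM complex shares with the activating B-MYB complex, rose at both times, by 0.40 after serum (adjusted p = 0.00432) and by 0.44 in starved cells (adjusted p = 0.0027). Of 6 further inhibitors of cyclin-dependent kinases, 1 rose after serum and 2 in starved cells, and none fell. CDKN3, a phosphatase that removes the activating phosphate of CDK1 and CDK2, changed by 0.61 ± 0.09 (adjusted p = 0.00158) after serum and by 0.47 ± 0.09 (adjusted p = 0.00700) in starved cells. It read 8.38 and 8.40 in shCDK8 cells after serum, against 7.88 and 7.67 in shControl cells, and 8.22 and 8.41 in starved shCDK8 cells, against 7.87 and 7.81 in starved shControl cells. CDKN1A, the p21 inhibitor that p53 induces, rose by 0.45 ± 0.10 (adjusted p = 0.0146) in starved cells, and its difference of 0.27 ± 0.10 (adjusted p = 0.103) after serum did not pass.

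The promoter elements shown above were then counted over the whole set. The RefSeq table held 48 of the 55 members, with 60 windows of 300 bases, and AURKA, BUB3, TTK, TPX2, BIRC5, UBE2C and FOXM1 were not matched. A CHR core stood in 68.3% of the 60 windows, against 13.6% of the 20109 windows of genes tested and 16.4% of all 35116 windows in the table. A CCAAT box stood in 68.3%, against 34.6% of the windows of genes tested. Both stood in 53.3%, against 5.41%. An E2F site, written as TTGGCGC or TTCGCGC, stood in 15% against 6.34%, and a forkhead site, written as TGTTTAC, in 1.67% against 2.75%. Elements were searched on both strands and could overlap. The set was compiled from mitotic genes, so its promoters are those of that known class.

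The elements also differed in place. Of the 56 CHR cores in the members' windows, 71.4% began within 50 bases of the start, against 26.1% of 3139 cores in the windows of genes tested. Of the 84 CCAAT boxes, 65.5% began in the 100 bases before the start, against 46.5% of 10302. The median position of a CHR core was -26.5 in members and -131 in genes tested, and that of a CCAAT box was -82 and -96. CCAAT boxes were most frequent between -75 and -50 in members and in genes tested alike, with 40 and 9.18 matches per 100 windows.

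**Figure D5:**
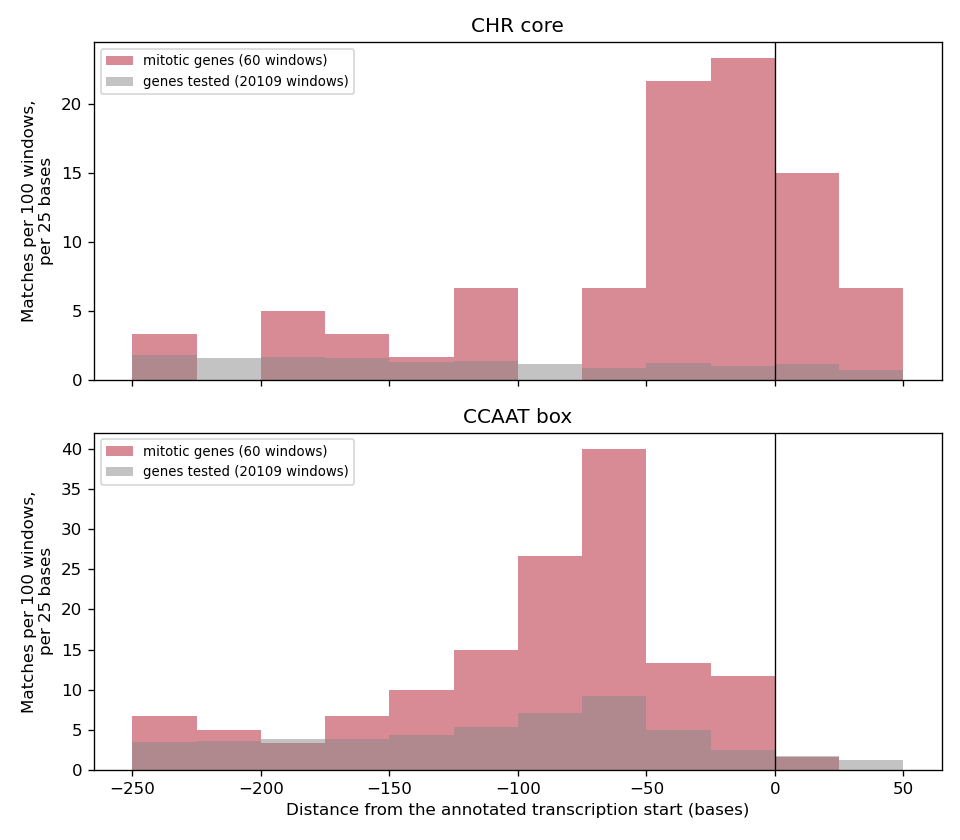
Matches per 100 promoter windows in bins of 25 bases, by distance from the annotated transcription start, for the CHR core (top) and the CCAAT box (bottom), in 60 windows of mitotic genes and 20109 windows of genes tested. CHR cores of mitotic genes gather within 50 bases of the start and CCAAT boxes gather upstream of them, where the CCAAT boxes of genes tested also peak.

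Within the set, the falls were set beside the elements each member held. Of 37 measured members with a CHR core, 30 fell in starved cells, with a median change of -0.56, and of 10 without it 9 fell, with a median of -0.51. KIF20A, with the fourth largest fall in starved cells, was among those without it. Of 29 with both elements in 1 window 23 fell, with a median of -0.55, and of the 4 with neither (CENPE, CENPI, KIF2C and CKAP2) 3 fell. Outside the set, of 995 other tested genes with both in 1 window, 8.84% fell after serum and 9.95% in starved cells, against 6.57% and 6.51% of the 14192 genes outside the set in the promoter table. Without the further pathway genes described above, those shares were 7.16% and 8.20% of 964 genes. No test was run on these shares.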

How the data were processed

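The authors deposited log2 probe set values made with RMA, per the submitters' processing notes. RMA corrects the background, normalizes the arrays to 1 distribution and summarises each probe set. Its version, and whether all 8 arrays entered 1 normalization, is not given in the sources used here, and the number of arrays limits the precision. Of 33297 probe sets, 19460 were annotated to a single gene. The brightest probe set on average stood for a gene with several, which gave 18417 genes. The members, roles and further lists were chosen with earlier results of these data known.

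A model of 4 group means was fitted to all 8 arrays with limma 3.58.1 in R 4.3.3, with no filter, and two-sided p-values were adjusted by Benjamini-Hochberg within each of 5 contrasts. In simulated data of the starved comparison (18417 genes), 95% of the genes given a shift of 0.5 (log2) were called, and 6 of 201 calls (2.99%) were false. The simulated noise was drawn independently for each gene, and only a small part of the genes was shifted. In the data 1313 genes rose and 1157 fell, and the members moved together on each array. The simulated shares are therefore not error rates of the calls in the data. Any member could be named. Values on each array were given for the 10 largest changes with groups that did not overlap. They were also given for the largest and smallest change of each role. Where none passed, the 5 smallest p were named. Array values of ECT2 and NCAPG and the shControl array values of KIF4A were left out. Of each further list, genes with large changes past the threshold were named, with up to 2 of the opposite direction and PLK1. These are not always the largest changes of their list. After serum the lowest change among the 24 regulators was -0.56, in a gene whose values are not given. Replicate numbers did not pair the samples (correlations of replicate deviations between groups of -0.19 to 0.13). Alternatives were leaving out each array, a smallest change of 1.5-fold, an intensity trend, a fit of the compared arrays alone, a replicate block, a filter at the 25th percentile, cyclic loess, array centring and probe set means.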

Additional observations from a re-analysis of the deposited data

How the results depend on the processing

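The falls in shCDK8 against shControl cells were recounted under every alternative, and 0 members rose in any. A minimum change of 1.5-fold is a stricter hypothesis by construction. With it 4 members passed after serum (DEPDC1, HMMR, CDC25C and CDC20) and 5 in starved cells (the same 4 and KIF20A). Shares of all genes under the alternatives are not given, so these recounts describe the members alone. Leaving out 1 array at a time gave 30 to 42 after serum and 40 to 46 in starved cells, with medians of -0.46 to -0.43 and -0.59 to -0.48, and the lowest count, 30, came without the first shControl array after serum. The remaining alternatives gave 42 to 47 and 45 to 47. The replicate block gave 43 after serum and 45 in starved cells. A block with crossed numbers, added after the data were seen, gave 45 in starved cells. Of the calls, 29 of 42 after serum and 40 of 45 in starved cells held in every alternative but the minimum change. In the serum comparisons 0 members passed under any alternative. Medians without 1 array ran from 0.039 to 0.17 in shCDK8 cells, from -0.035 to 0.050 in shControl cells and from 0.019 to 0.16 for the difference. The serum difference of KIF15 in shControl cells was -0.00849 without the second starved shControl array, a change of sign, and 0.35 without the first. The cause was not tested. With 2 arrays per group, small changes are limited by the spread between duplicates, whose SD for the members' median was 0.05.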
